A study of Mus musculus with 15 samples.

Results

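Morphine given under mild stress (MSM) was compared with saline vehicle given under the same mild stress (MSS). The tissue was the right hippocampus of C57BL/6 mouse pups, all male and aged 9 postnatal days. The comparison used the 3 arrays labelled as mild stress with morphine and the 3 labelled as mild stress with saline vehicle, chosen by their treatment label alone, 6 of the 15 arrays of the study. Pups were treated between postnatal days 5 and 9 (birth is day 1), and litters were limited to 7 pups per dam. The other groups were severe stress with morphine (SSM), severe stress with saline (SSS) and untreated controls (CC), with 3 arrays each. MSM and MSS pups thus shared the strain, sex, age and mild stress and differed in the label by the drug, while CC pups were untreated. The nature of either stress and the dose and route of morphine were not given in the sources used here. Neither were the pups' litters, so p-values measure only the spread between these arrays. The sample titles carry an SS number of unstated meaning, which is the same for all MSM and MSS samples and another for all CC samples, while SSM and SSS samples fall under 3 others. Differences from CC and from the severe stress groups cannot be told apart from whatever this number stands for.

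Morphine acts mainly on the mu opioid receptor, which couples to inhibitory G proteins that lower cyclic AMP and open potassium channels. In the hippocampus this receptor sits largely on inhibitory interneurons, and the tissue also responds to stress hormones through the glucocorticoid and mineralocorticoid receptors. In the second postnatal week of the mouse the dentate gyrus is still adding granule neurons and myelin is beginning to form.

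Total RNA was read on Mouse Gene 1.0 ST arrays (Affymetrix), whose probes cover the exons of a gene. All levels are log2 intensities after RMA (background correction, quantile normalization and probe summary), so a difference of 1 is a doubling in signal, and levels of different genes are not set against each other. Differences are MSM minus MSS with the standard error (SE) or 95% interval from limma, which fits every gene with a mean per group. In bulk tissue, fewer cells of a type and less RNA per cell cannot be told apart. The medians of the 6 arrays lay between 6.22 and 6.26, and correlations across genes were 0.992 to 0.997 within MSM, 0.997 for every pair within MSS and 0.991 to 0.998 between MSM and MSS. The median SE of a difference was 0.0805, and the number of arrays limited the precision. Markers of hippocampal neurons were bright: Neurod6, a transcription factor of pyramidal neurons, and Camk2a, a synaptic kinase, read 9.17 or more and 11.35 or more on 5 of the 6 arrays, and 7.37 and 10.13 on MSM replicate 3.

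No gene passed the test between MSM and MSS: 0 of 19938 genes (0%) had a Benjamini-Hochberg adjusted p under 0.05 in limma, and the smallest adjusted p was 0.9996. At an unadjusted p under 0.05 there were 513 genes (2.57%), fewer than the 997 that a level of 0.05 allows, with 316 higher in MSM (1.58%) and 197 lower (0.988%). That split depended on scaling: 350 higher and 422 lower after quantile normalization of the table, and 211 higher and 562 lower after centring each array on its median. It also depended on single arrays, with 539 higher and 524 lower without MSM replicate 1 and 594 and 385 without MSM replicate 2. The 3 MSM arrays lay entirely above the 3 MSS arrays for 772 genes (3.87%) and entirely below for 693 (3.48%), and the mean was higher in MSM for 9987 genes (50.1%). The median difference over all genes was 0.000117, and the 5th and 95th percentiles were -0.14 and 0.16. For 18974 genes (95.2%) the whole 95% interval lay within 0.5 of 0 on the log2 scale. MSM against CC and MSS against CC also gave 0 genes each at an adjusted p under 0.05 (0% in both), with 551 and 442 genes at an unadjusted p under 0.05.

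**Figure D1:**
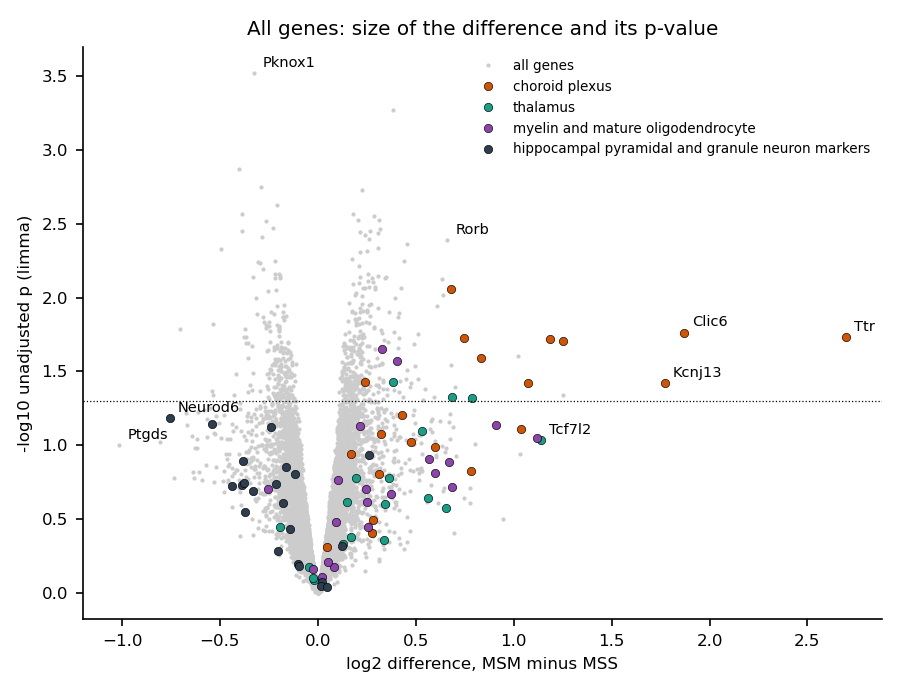
Difference MSM minus MSS (x axis, log2) against the size of the unadjusted limma p-value (y axis, -log10) for the 19938 genes, with 4 marker lists coloured, some genes named and a dotted line at a p of 0.05. Ttr and other choroid plexus genes lie far to the right at modest p-values, and Pknox1 has the smallest p, 0.000302, which did not pass adjustment.

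The largest differences belonged to genes of the choroid plexus, the secretory epithelium of the ventricle that borders the hippocampus. Of 13 genes that differed by more than 1, 12 were higher in MSM, and the list of choroid plexus markers held 7 of these: Ttr, Clic6, Kcnj13, Otx2, Aqp1, Folr1 and Sostdc1. Ttr, the gene of transthyretin, which carries thyroid hormone, was 13.18, 12.88 and 13.24 in MSM, against 9.17, 8.99 and 13.06 in MSS, a difference of 2.70 ± 1.02 (SE). MSS replicates 1 and 2 were low, and MSS replicate 3 lay among the MSM arrays. Clic6, a chloride channel protein, was 7.60, 7.08 and 7.51 in MSM, against 4.59, 4.82 and 7.18 in MSS. Kcnj13, a potassium channel, was 8.08, 7.50 and 8.04 in MSM, against 5.90, 4.92 and 7.49 in MSS. Otx2, a transcription factor needed for choroid plexus development, was 6.85, 6.14 and 7.62 in MSM, against 5.19, 5.2 and 6.46 in MSS. The same 2 MSS arrays were low each time. Pcp4l1, a calmodulin-binding protein relative, was 8.11, 8.06 and 8.85 in MSM, against 6.71, 6.42 and 8.13 in MSS, and its groups overlapped.

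All 21 measured choroid plexus markers had a higher mean in MSM, 10 at an unadjusted p under 0.05 (1.58% of all genes), and 6 had groups that did not overlap in this direction (3.87% of all genes). Their median difference was 0.68, against 0.000117 over all genes. The mean level over the 21 markers was 7.05, 6.61 and 6.90 on the MSM arrays, 5.74, 5.61 and 6.76 on the MSS arrays and 6.31, 6.79 and 6.59 on the CC arrays. MSS replicates 1 and 2 were therefore below every CC array, and a further saline array, SSS replicate 2, read 5.60. In 20 of the 21 genes MSS replicate 3 was above MSS replicates 1 and 2. The other SSS arrays read 6.71 and 7.26, the second the highest of all 15 arrays, so low levels were not shared by all saline arrays. The dissection was not described in the sources used here.

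**Figure D2:**
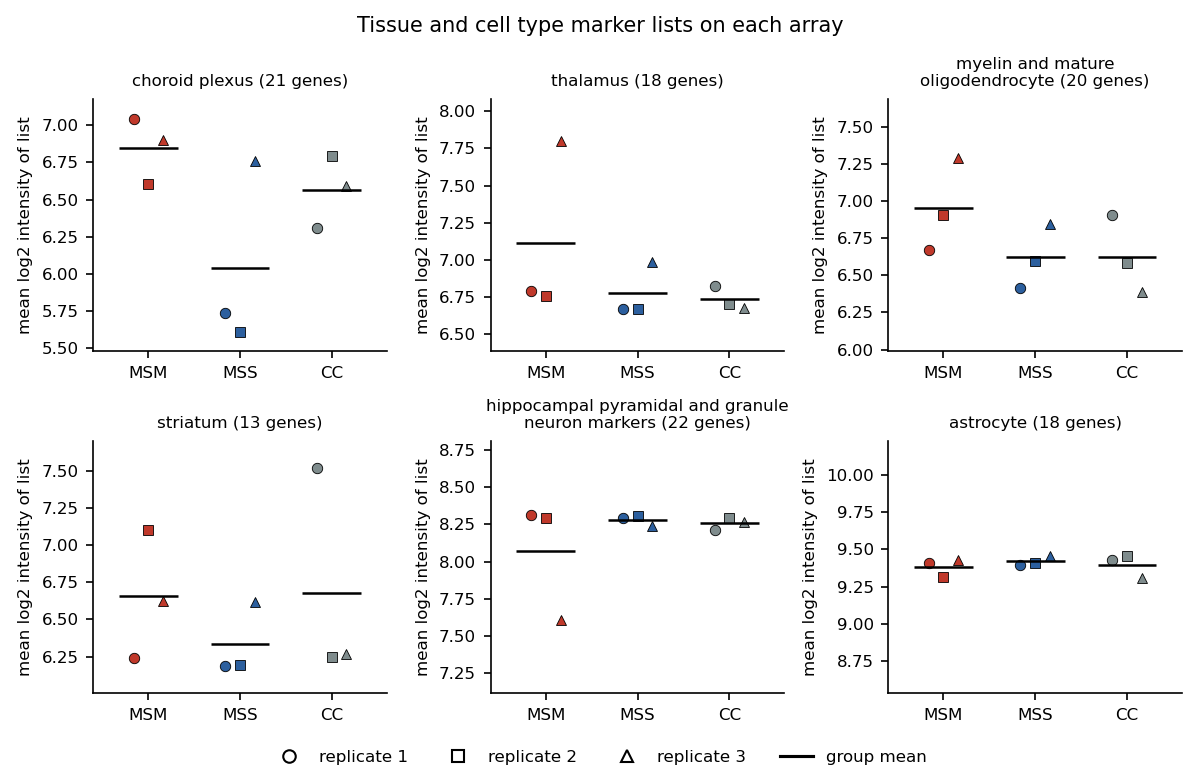
Mean log2 intensity of 6 marker lists (y axes, choroid plexus, thalamus, myelin, striatum, hippocampal neurons and astrocytes) on the MSM, MSS and CC arrays (x axes), each point an array, its shape the replicate and the line the group mean. MSS replicates 1 and 2 are low for choroid plexus, and MSM replicate 3 is high for thalamus and myelin and low for hippocampal neuron markers.

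A single MSM array stood apart for markers of neighbouring brain tissue. The mean of 18 thalamus markers was 6.79, 6.76 and 7.80 on the MSM arrays and 6.67, 6.67 and 6.99 on the MSS arrays, and 14 of the 18 were higher on MSM replicate 3 than on any of the other 14 arrays of the study. Rora, a nuclear receptor of thalamic neurons and of the clock, was 6.53, 6.59 and 8.45 in MSM, against 6.13, 6.25 and 6.83 in MSS. Ramp3, a receptor chaperone, was 5.41, 5.93 and 7.18 in MSM, against 5.37, 5.54 and 5.57 in MSS. Of the thalamus list 14 genes had a higher mean in MSM, 3 of them at an unadjusted p under 0.05 (1.58% of all genes), and the median difference of 0.34 became 0.02 without MSM replicate 3.

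Markers of the hippocampus's own neurons were low on that array. The 22 pyramidal and granule neuron markers averaged 8.32, 8.29 and 7.61 on the MSM arrays and 8.29, 8.31 and 8.24 on the MSS arrays, and 16 of the 22 were lowest on MSM replicate 3 among the 6 arrays. Neurod6 was 9.40, 9.17 and 7.37 in MSM, against 9.47, 9.47 and 9.27 in MSS, and differed by -0.12 without that array. Itpka, a kinase of dendritic spines, was 7.53, 7.36 and 5.95 in MSM, against 7.57, 7.59 and 7.30 in MSS. The list's median difference was -0.19, with 5 genes higher and 0 at an unadjusted p under 0.05 in either direction, and it was 0.04 without MSM replicate 3. For many of the results that follow the value without that array is given as well.

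Genes that form myelin were higher on the same array. Of 20 measured myelin and mature oligodendrocyte genes 18 had a higher mean in MSM, 2 at an unadjusted p under 0.05 (1.58% of all genes), with a median difference of 0.25. Among the 6 arrays 18 of the 20 were highest on MSM replicate 3, and among all 15 arrays 7 were. The mean of the list was 7.29 on MSM replicate 3 and 7.39 on SSM replicate 1. Mag, a myelin adhesion protein, was 6.61, 7.68 and 8.19 in MSM, against 5.73, 6.13 and 7.27 in MSS. Tspan2, a tetraspanin of oligodendrocytes, was 9.14, 9.26 and 9.85 in MSM, against 8.94, 8.92 and 9.18 in MSS, with a difference of 0.40 (95% interval 0.05 to 0.75), or 0.19 without MSM replicate 3. Trf, the iron carrier transferrin, was 7.58, 7.39 and 7.74 in MSM, against 7.18, 7.05 and 7.50 in MSS. Its lower MSS arrays, replicates 1 and 2, were also those low for choroid plexus markers, and the SSS arrays read 7.20, 6.95 and 7.39. The part of choroid plexus tissue in the Trf values was not tested. Without MSM replicate 3 the list's median was 0.09, and 17 of the 20 genes still had a higher mean. Of 15 oligodendrocyte precursor genes 12 were higher in mean, with a median of 0.16. Without that array 5 of the 15 were higher and the median was -0.06.

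The opioid genes gave no call between MSM and MSS, and the intervals of some were wide. Of 15 measured receptors, peptides and related genes 11 had a higher mean in MSM, with a median difference of 0.08, 0 at an unadjusted p under 0.05 and 0 with groups that did not overlap. Oprm1, the mu receptor on which morphine acts, was 4.83, 4.88 and 4.89 in MSM, against 4.96, 4.90 and 4.87 in MSS. These dim values overlapped, and the difference of -0.04 had a 95% interval from -0.19 to 0.11. Oprd1, the delta receptor, differed by 0.04 (95% interval -0.19 to 0.26) and Oprk1, the kappa receptor, by 0.27 (-0.46 to 0.99), or by 0.07 without MSM replicate 3. Oprl1, the nociceptin receptor, was 8.23, 8.29 and 8.89 in MSM, against 8.35, 8.24 and 8.24 in MSS. Its difference of 0.19 was -0.02 without MSM replicate 3.

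Among the opioid peptides, Penk, the enkephalin precursor, was 7.45, 9.30 and 8.27 in MSM, against 7.18, 6.92 and 8.09 in MSS. Its difference of 0.95 had an interval from -1.0 to 2.89, and Penk is also abundant in striatum. The striatal gene Ppp1r1b, a dopamine-regulated phosphatase inhibitor, was high on the same array, MSM replicate 2, with 7.07, 8.62 and 7.16 in MSM, against 6.5, 6.58 and 7.68 in MSS. Over 13 striatum genes the mean was 6.24, 7.10 and 6.63 on the MSM arrays and 6.18, 6.19 and 6.62 on the MSS arrays, and 12 of 13 had a higher mean in MSM. High levels were not limited to morphine under mild stress. The list mean was 8.49 on SSM replicate 1 and 7.52 on the untreated CC replicate 1, where Penk read 11.40 and 10.08. On the remaining SSM, SSS and CC arrays the list mean lay between 6.19 and 6.47. The list's median difference of 0.25 was 0.08 without MSM replicate 2, and the part of striatal tissue in the Penk values was not tested. Pdyn, the dynorphin precursor, differed by -0.02 (-0.51 to 0.47; 0.08 without MSM replicate 3), Pnoc, the nociceptin precursor, by 0.17 (-0.11 to 0.45; -0.0043 without MSM replicate 3) and Pomc, the endorphin precursor, by 0.10 (-0.07 to 0.27). Pomc was dim, with an identical 4.57 on all 3 MSM arrays. Such ties occurred in 69 genes for MSM and 47 for MSS.

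**Figure D3:**
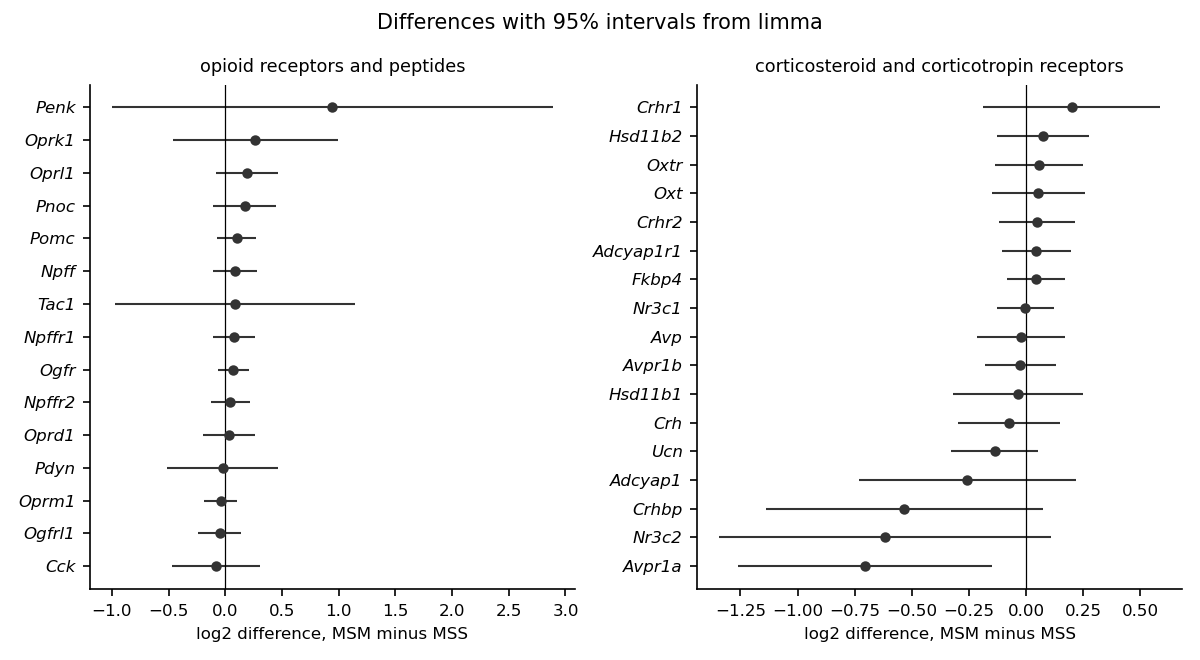
Difference MSM minus MSS (x axis, log2, points) with 95% intervals from limma (bars) for the 15 opioid receptors and peptides (left) and the 17 genes of corticosteroid and corticotropin signalling (right). All intervals but that of Avpr1a include 0, those of Oprm1 and Nr3c1 are narrow, and that of Penk reaches from -1.0 to 2.89.

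Downstream of the receptors, 32 genes for inhibitory G proteins, adenylyl cyclases, potassium channels and their regulators had a median difference of 0.02, with 20 higher. Of these genes 0 had an unadjusted p under 0.05 (2.57% of all genes), and 1 lay entirely higher in MSM (3.87% of all genes). Kcnj3, a subunit of the potassium channel that opioid receptors open, was 8.05, 8.0 and 7.28 in MSM, against 8.24, 8.12 and 7.89 in MSS. Rgs14, a regulator of G protein signalling in pyramidal neurons, was 6.94, 6.76 and 5.83 in MSM, against 6.86, 6.79 and 6.67 in MSS, and its difference of -0.26 was 0.07 without MSM replicate 3. Prkar2b, a regulatory subunit of protein kinase A, was 8.88, 9.09 and 9.54 in MSM, against 8.98, 8.80 and 8.90 in MSS. In each of these 3 genes MSM replicate 3 was the extreme array, and without it Kcnj3 differed by -0.06 and Prkar2b by 0.09, against -0.31 and 0.27 with it. Adcy1, a calmodulin-activated cyclase, differed by 0.14 (95% interval -0.08 to 0.36) and Crem, a cyclic AMP response factor, by 0.11 (-0.06 to 0.28).

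Of the stress hormone receptors, that for glucocorticoids was close in both groups. Nr3c1, the glucocorticoid receptor, was 7.75, 7.83 and 7.84 in MSM, against 7.86, 7.84 and 7.73 in MSS, with a difference of -0.0021 (95% interval -0.13 to 0.12). Nr3c2, the mineralocorticoid receptor, which is abundant in pyramidal and granule neurons, was 9.12, 8.91 and 7.18 in MSM, against 9.06, 9.03 and 8.97 in MSS. Only MSM replicate 3, where the hippocampal neuron markers were lowest, was low, and the difference of -0.62 was -0.003 without it. Avpr1a, a vasopressin receptor, was 7.50, 7.14 and 6.06 in MSM, against 7.67, 7.47 and 7.66 in MSS, and Crhbp, the corticotropin-releasing hormone binding protein, was 7.37, 7.32 and 6.21 in MSM, against 7.64, 7.51 and 7.35 in MSS. Of 17 receptor and peptide genes of this system 7 had a higher mean in MSM. At an unadjusted p under 0.05, 1 was lower (0.988% of all genes), Avpr1a, whose difference of -0.70 was -0.28 without MSM replicate 3. That of Crhbp was -0.53 with the array and -0.16 without it.

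Among 23 genes known to respond to glucocorticoids 9 had a higher mean in MSM, and the median was -0.03. At an unadjusted p under 0.05, 1 was lower (0.988% of all genes). Without MSM replicate 3, 13 of the 23 were higher and the median was 0.0047. The lower gene was Glul, glutamine synthetase of astrocytes, with 11.27, 11.26 and 10.93 in MSM, against 11.36, 11.44 and 11.41 in MSS. Its groups did not overlap, and its difference was -0.25 (95% interval -0.43 to -0.07), or -0.14 without MSM replicate 3. A further probe set of Glul had a smaller difference of -0.15. Sgk1, a kinase induced by glucocorticoids, was 8.12, 8.12 and 8.24 in MSM, against 7.92, 7.99 and 8.07 in MSS. Its groups also did not overlap, in the other direction, with a difference of 0.17 (-0.003 to 0.34). Fkbp5, a chaperone that restrains the receptor, differed by 0.07 (-0.07 to 0.22), Tsc22d3 by 0.07 (-0.09 to 0.24) and Per1, a clock gene that glucocorticoids induce, by 0.09 (-0.06 to 0.24). The intervals of Fkbp5, Tsc22d3 and Per1 all included 0.

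Immediate early genes, which neurons switch on with activity, were lower in mean for 19 of 24 members in MSM, 5 of them at an unadjusted p under 0.05 (0.988% of all genes lay lower at that level). The median was -0.15, and -0.03 without MSM replicate 3, the array on which 19 of the 24 were lowest among the 6 arrays. Junb, a transcription factor of the AP-1 family, was 5.94, 6.00 and 5.71 in MSM, against 6.13, 6.07 and 6.04 in MSS, and was the member that did not overlap in this direction. Nr4a1, an orphan nuclear receptor, was 7.14, 7.49 and 7.07 in MSM, against 7.63, 7.48 and 7.34 in MSS. Arc, which regulates AMPA receptors at synapses, was 6.79, 6.94 and 6.54 in MSM, against 7.07, 6.97 and 6.92 in MSS. All 3 genes were lowest on MSM replicate 3, and without it Junb differed by -0.11 and Nr4a1 by -0.17, against -0.20 and -0.25 with it. Nr4a2 differed by -0.73 (95% interval -1.81 to 0.34) with 8.17, 7.96 and 6.61 in MSM, against 8.90, 8.15 and 7.89 in MSS, and by -0.25 without MSM replicate 3. Egr1 differed by -0.12 and Bdnf, a neurotrophin, by -0.07, and both were positive without MSM replicate 3, at 0.08 and 0.04. Fos differed by 0.08.

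**Figure D4:**
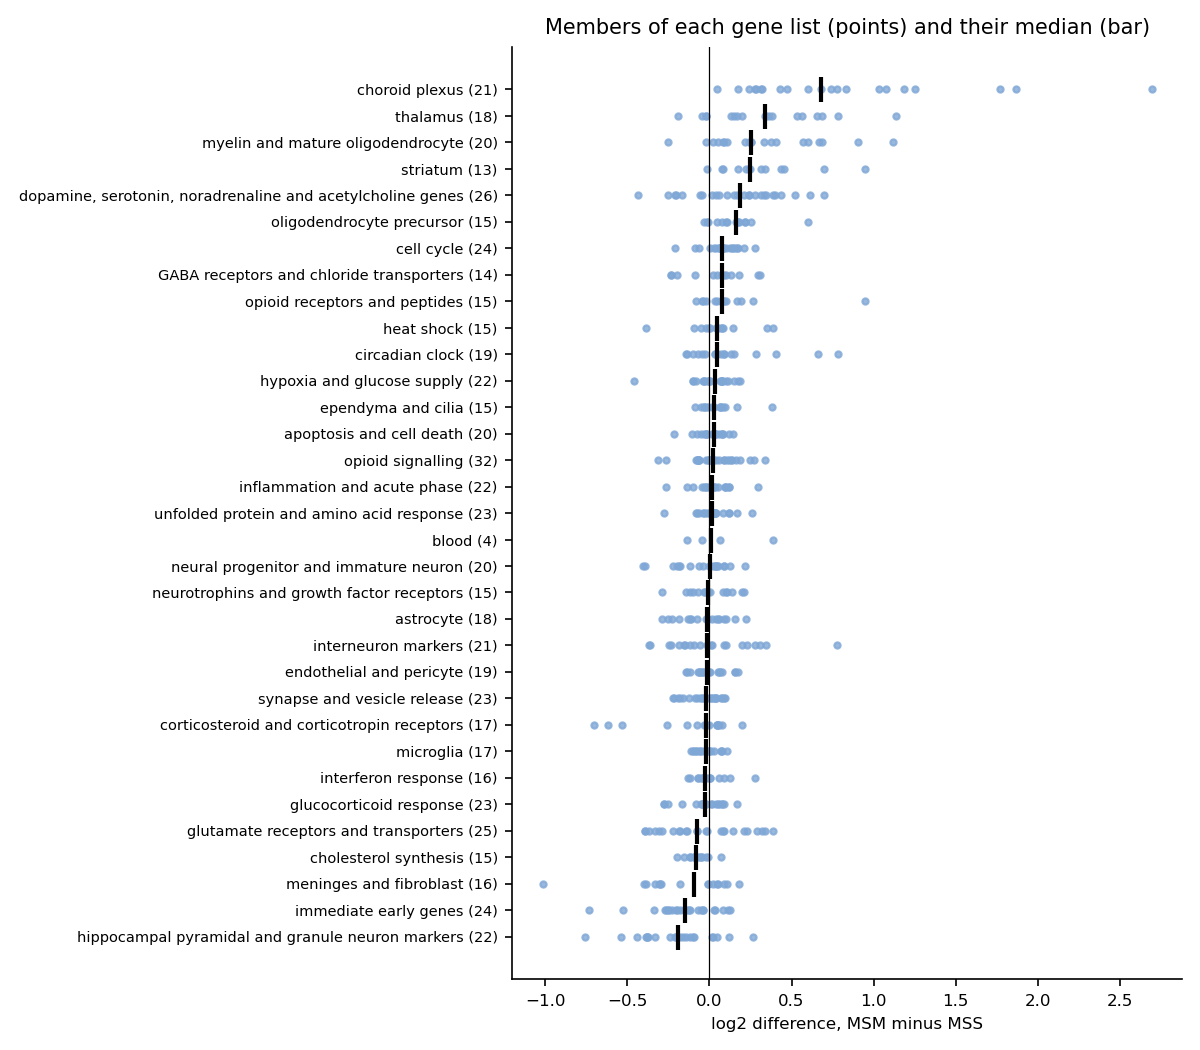
Difference MSM minus MSS (x axis, log2) of each measured member (points) and the median (bar) of the 33 gene lists, with the number of members in brackets. The choroid plexus list, with a median of 0.68, is the farthest to the right, and the hippocampal neuron list, at -0.19, the farthest to the left.

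The circadian clock list as a whole was less dependent on that array, though not every member was. The clock is a feedback loop in which Arntl and Clock drive the Cry and Per repressors through the E-box, while the ROR receptors raise and the Nr1d repressors lower Arntl. Of 19 measured members 13 had a higher mean in MSM, with a median difference of 0.04, and of 0.08 without MSM replicate 3. At an unadjusted p under 0.05, 4 members were higher (1.58% of all genes were) and 1 was lower (0.988% of all genes). The 4 were Rorb, Dbp, Cry1 and Rora. Rora is also on the thalamus list and was 6.53, 6.59 and 8.45 in MSM, so that MSM replicate 3 was the high array. Dbp, an output gene of the clock, was 8.19, 8.12 and 7.94 in MSM, against 7.74, 7.80 and 7.87 in MSS. Its groups did not overlap, the difference was 0.28 (95% interval 0.09 to 0.48), and the CC arrays at 8.06, 8.16 and 7.98 lay nearer to MSM. Arntl, the core activator, was 7.54, 7.55 and 7.51 in MSM, against 7.74, 7.65 and 7.63 in MSS, and was the member that lay entirely lower. Its difference was -0.14 (-0.26 to -0.02). Cry1, a core repressor, was 6.64, 6.93 and 7.04 in MSM, against 6.26, 6.36 and 6.77 in MSS, where MSS replicate 3 overlapped with MSM. Rorb, a nuclear receptor of the ROR family, was 6.69, 7.62 and 7.71 in MSM, against 6.67, 6.63 and 6.74 in MSS, so that 2 of 3 MSM arrays were high. Without MSM replicate 3 Dbp differed by 0.35, Arntl by -0.13, Cry1 by 0.32 and Rorb by 0.48, against 0.66 for Rorb with it. Rorb was the gene that passed the limma test under an alternative: without MSM replicate 1 its difference was 0.99 and its adjusted p 0.00711. The array left out there, at 6.69, was the MSM array within the MSS range. Nr1d1, a repressor of Arntl, differed by 0.15 (-0.02 to 0.32) and Per2 by -0.03 (-0.21 to 0.16). The hour of sampling was not given in the sources used here, and its part in the clock values was not tested.

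The promoters of Cry1, Arntl and Dbp are given below to show which loop elements lie next to their starts. These are among the clock genes whose differences had intervals away from 0. Each is the strand of the gene from 250 bases before to 50 after a start in RefSeq (build GRCm38.p6), and capitals mark the E-box CACGTG, which reads the same on both strands, or the ROR half-site AGGTCA, searched on both strands (as TGACCT on the other). The positions are chr10:85185005-85185304, minus strand, for Cry1, chr7:113207261-113207560, plus strand, for 1 of the starts of Arntl, and chr7:45704997-45705296, plus strand, for Dbp.
Cry1: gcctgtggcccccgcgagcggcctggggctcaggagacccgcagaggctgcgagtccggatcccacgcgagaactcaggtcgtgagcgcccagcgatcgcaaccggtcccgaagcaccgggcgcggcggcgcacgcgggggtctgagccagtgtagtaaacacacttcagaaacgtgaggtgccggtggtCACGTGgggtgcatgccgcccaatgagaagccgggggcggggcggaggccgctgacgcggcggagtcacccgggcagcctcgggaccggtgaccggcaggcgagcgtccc
Arntl: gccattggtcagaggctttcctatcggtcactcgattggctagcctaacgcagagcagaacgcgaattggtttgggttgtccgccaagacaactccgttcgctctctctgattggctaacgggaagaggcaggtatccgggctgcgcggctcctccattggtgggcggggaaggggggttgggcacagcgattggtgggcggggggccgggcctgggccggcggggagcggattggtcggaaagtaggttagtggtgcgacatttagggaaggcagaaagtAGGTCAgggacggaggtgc
Dbp: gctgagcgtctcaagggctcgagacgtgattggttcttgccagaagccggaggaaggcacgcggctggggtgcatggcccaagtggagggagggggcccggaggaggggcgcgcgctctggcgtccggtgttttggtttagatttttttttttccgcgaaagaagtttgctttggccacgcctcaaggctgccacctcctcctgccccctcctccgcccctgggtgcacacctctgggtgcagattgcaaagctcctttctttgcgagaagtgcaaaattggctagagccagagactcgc
The Cry1 window held 1 E-box, the Arntl window 1 ROR half-site, and the Dbp window had neither set of letters. Rorb and Rora, whose differences also had intervals away from 0, are not shown, and their windows had neither set of letters. The window of the other Arntl start in the table, chr7:113207215-113207514, had no ROR half-site in these exact letters. Variants of either element were not searched. Of the 19 clock members 17 had a promoter in the RefSeq table, 26 windows in all, and 6 of these held the E-box, against 2349 of all 32851 windows (7.15%). The ROR half-site was in 5 of the 26 clock windows and in 5340 of all windows (16.3%).

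Proliferation genes differed little. Of 24 cell cycle genes 21 had a higher mean in MSM, with a median of 0.08, and of 0.07 without MSM replicate 3. Without MSS replicate 1, 15 of the 24 were higher and the median was 0.05, while leaving out any other array gave 18 to 21 higher. With all arrays, 2 of the 24 were higher at an unadjusted p under 0.05 (1.58% of all genes) and 4 had groups that did not overlap (3.87% of all genes). Aurkb, a kinase of chromosome segregation, was 6.14, 6.03 and 6.03 in MSM, against 5.59, 5.88 and 5.91 in MSS, a difference of 0.28 (95% interval 0.09 to 0.46). Ccna2, cyclin A, was 6.51, 6.59 and 6.54 in MSM, against 6.38, 6.41 and 6.33 in MSS. Both were higher on every MSM array than on any MSS array. Progenitor and immature neuron genes were even, with 10 of 20 higher and a median of 0.0033, and Dcx, a microtubule protein of young neurons, was 10.20, 10.14 and 9.73 in MSM, against 10.24, 10.16 and 10.23 in MSS.

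Cholesterol synthesis genes were lower in mean for 14 of 15 members, with a median of -0.08, and of -0.05 without MSM replicate 3. The member lower at an unadjusted p under 0.05 (0.988% of all genes) was Fdft1, squalene synthase. It was 9.78, 9.82 and 9.58 in MSM, against 10.01, 9.86 and 9.90 in MSS, a difference of -0.20 (95% interval -0.39 to -0.004), or -0.12 without MSM replicate 3. Sqle, the next enzyme of the pathway, was 10.23, 10.07 and 9.92 in MSM, against 10.33, 10.17 and 10.20 in MSS, and its groups overlapped.

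Stress response genes of the cell gave single members rather than shared shifts. Sesn2, sestrin 2, which is induced when amino acids are short, was 6.56, 6.56 and 6.69 in MSM, against 6.39, 6.22 and 6.42 in MSS, a difference of 0.26 (95% interval 0.10 to 0.42) in a list with a median of 0.01. Dnajb6, a co-chaperone, was 4.75, 4.78 and 4.99 in MSM, against 5.17, 5.39 and 5.11 in MSS, a difference of -0.38 (-0.61 to -0.16). These were dim values. The MSS arrays lay above every array of the other groups, and the CC arrays at 4.62 to 4.94 were nearer to MSM. Most heat shock genes differed with the other sign, with 10 of 15 higher in mean and a median of 0.05. Hspb1, a small heat shock protein, was 5.80, 5.76 and 6.69 in MSM, against 5.64, 5.67 and 5.78 in MSS, a difference of 0.39 that was 0.08 without MSM replicate 3. Casp6, an executioner caspase, was 5.73, 5.75 and 5.69 in MSM, against 5.95, 5.99 and 5.88 in MSS, a difference of -0.22 (-0.36 to -0.07). The groups of Sesn2, Dnajb6 and Casp6 did not overlap. Their lists had at most 1 member at an unadjusted p under 0.05 in either direction (1.58% of all genes higher and 0.988% lower).

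Of 18 astrocyte genes 8 had a higher mean in MSM, with a median of -0.02. At an unadjusted p under 0.05, 2 were lower (0.988% of all genes), Glul and Slco1c1, a thyroid hormone transporter. Without MSM replicate 3, 4 of the 18 were higher and the median was -0.03. Slco1c1 was 9.72, 9.66 and 9.25 in MSM, against 9.84, 9.76 and 9.71 in MSS, and its difference of -0.23 was -0.08 without that array. Of 17 microglia genes 6 had a higher mean in MSM (median -0.02, 0 at an unadjusted p under 0.05), and of 22 genes of inflammation and the acute phase 14 did (median 0.02, 0 at that level). Tlr4, a receptor of innate immunity that opioid studies often examine, was 4.18, 4.21 and 4.18 in MSM, against 4.38, 4.34 and 4.25 in MSS, with a difference of -0.14 (95% interval -0.29 to 0.01). These were dim values whose groups did not overlap. Gfap, the filament of reactive astrocytes, differed by 0.04, and by -0.08 without MSM replicate 3. Of 19 endothelial and pericyte genes 8 had a higher and 11 a lower mean, with a median of -0.02. The member at an unadjusted p under 0.05, on the higher side (1.58% of all genes), was Pecam1, a junction protein of endothelium. It differed by 0.16 (0.01 to 0.30), and Abcb1a of the same list by -0.14 (-0.32 to 0.04).

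Transmitter receptor lists had median differences of both signs. The 25 glutamate receptors and transporters had a median of -0.07, and of -0.03 without MSM replicate 3. Of these, 2 were lower at an unadjusted p under 0.05 (0.988% of all genes). Grin2c, an NMDA receptor subunit, was 6.58, 6.56 and 5.93 in MSM, against 6.75, 6.85 and 6.57 in MSS, and Gria3, an AMPA receptor subunit, was 9.53, 9.48 and 9.10 in MSM, against 9.76, 9.55 and 9.47 in MSS. Both were lowest on MSM replicate 3, and without it they differed by -0.16 and -0.09, against -0.37 and -0.22 with it. The 14 GABA receptor and chloride transporter genes had a median of 0.08, with 10 higher, and of 0.00375 without MSM replicate 3, with 7 higher. The chloride importer Slc12a2, which choroid plexus also expresses, was 8.89, 8.68 and 8.95 in MSM, against 8.5, 8.40 and 8.71 in MSS. With the choroid plexus and thalamus covariates its difference of 0.31 was -0.02. Of 21 interneuron genes 10 were higher and 11 lower in mean. Htr3a, a serotonin receptor subunit, was the member at an unadjusted p under 0.05, on the lower side (0.988% of all genes). It was 6.14, 6.08 and 5.45 in MSM, against 6.35, 6.21 and 6.20 in MSS, a difference of -0.37 (95% interval -0.67 to -0.07). Sst differed by -0.19 and Vip by -0.23. Each of these was lowest on MSM replicate 3. On the higher side, Npy, neuropeptide Y, was 9.17, 9.21 and 9.36 in MSM, against 8.79, 8.90 and 9.13 in MSS, a difference of 0.31 (95% interval -0.03 to 0.65). Of 26 dopamine, serotonin, noradrenaline and acetylcholine genes 19 had a higher mean in MSM, 0 at an unadjusted p under 0.05, and the median of 0.19 was 0.07 without MSM replicate 3. Chrm2, a muscarinic receptor abundant in thalamus, was 6.17, 6.44 and 7.42 in MSM, against 6.27, 6.22 and 5.97 in MSS, and its difference of 0.52 was 0.15 without MSM replicate 3. Of 23 genes of the synapse and vesicle release 10 were higher in mean, and the median was -0.02. The member lower at an unadjusted p under 0.05 (0.988% of all genes) was Syt5, a synaptotagmin. It was 9.61, 9.51 and 9.25 in MSM, against 9.84, 9.60 and 9.61 in MSS. Its difference of -0.22 was -0.12 without MSM replicate 3.

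The genes with the smallest p-values among those whose groups did not overlap, at or above the median level, differed by small amounts. Pknox1, a homeodomain transcription factor, had the smallest p of all, 0.000302, and an adjusted p of 0.9996 in limma. It was 6.45, 6.45 and 6.36 in MSM, against 6.81, 6.79 and 6.63 in MSS, with a difference of -0.32 ± 0.07 (SE). On the CC arrays it was 6.61, 6.78 and 6.71. Mpc1, a subunit of the mitochondrial pyruvate carrier, was 8.74, 8.80 and 8.87 in MSM, against 8.52, 8.57 and 8.65 in MSS, with a difference of 0.23 ± 0.06 (SE) and CC arrays at 8.65, 8.78 and 8.77. For both genes the gap between the groups was narrower than the range of the MSS arrays. Inpp5a, an inositol phosphatase, was 8.01, 7.93 and 8.30 in MSM, against 7.65, 7.76 and 7.89 in MSS. Rgs6, a regulator of G protein signalling that turns off inhibitory G proteins, was 7.46, 7.79 and 8.18 in MSM, against 7.26, 7.42 and 7.43 in MSS. Both were highest on MSM replicate 3, and without it Inpp5a differed by 0.20 and Rgs6 by 0.25, against 0.31 and 0.44 with it. Gpr139, an orphan receptor known to oppose mu receptor signalling in mice, was 7.75, 7.47 and 7.48 in MSM, against 7.77, 7.88 and 7.90 in MSS, with a difference of -0.29 (95% interval -0.47 to -0.11).

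Others on the higher side were Ndfip2 (0.18), an adaptor of ubiquitin ligases, Rims4 (0.21) of the presynaptic active zone, Apoa2 (0.31), an apolipoprotein, Phlda3 (0.31), a p53 target, Phtf2 (0.21), Npc2 (0.18), a lysosomal cholesterol carrier, Ndufs5 (0.25) of respiratory complex I, and Itpripl1 (0.31). Others on the lower side were Fam76a (-0.23), Atg16l2 (-0.28), Fcrls (-0.22), a microglial receptor, Sirt5 (-0.21), a mitochondrial desuccinylase, Fam20a (-0.24), Cnpy4 (-0.18), Insm1 (-0.31), a factor of neuronal progenitors, Mblac1 (-0.28) and Ccdc149 (-0.25). Without MSM replicate 3 Insm1 differed by -0.15, Fam20a by -0.15 and Ccdc149 by -0.15. Ndfip2 has a further, dim probe set with a difference of -0.0042. Kbtbd7, a ubiquitin ligase adaptor, was 7.42, 7.41 and 7.34 in MSM, against 7.51, 7.48 and 7.51 in MSS, a difference of -0.11 (95% interval -0.22 to -0.00011).

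**Figure D5:**
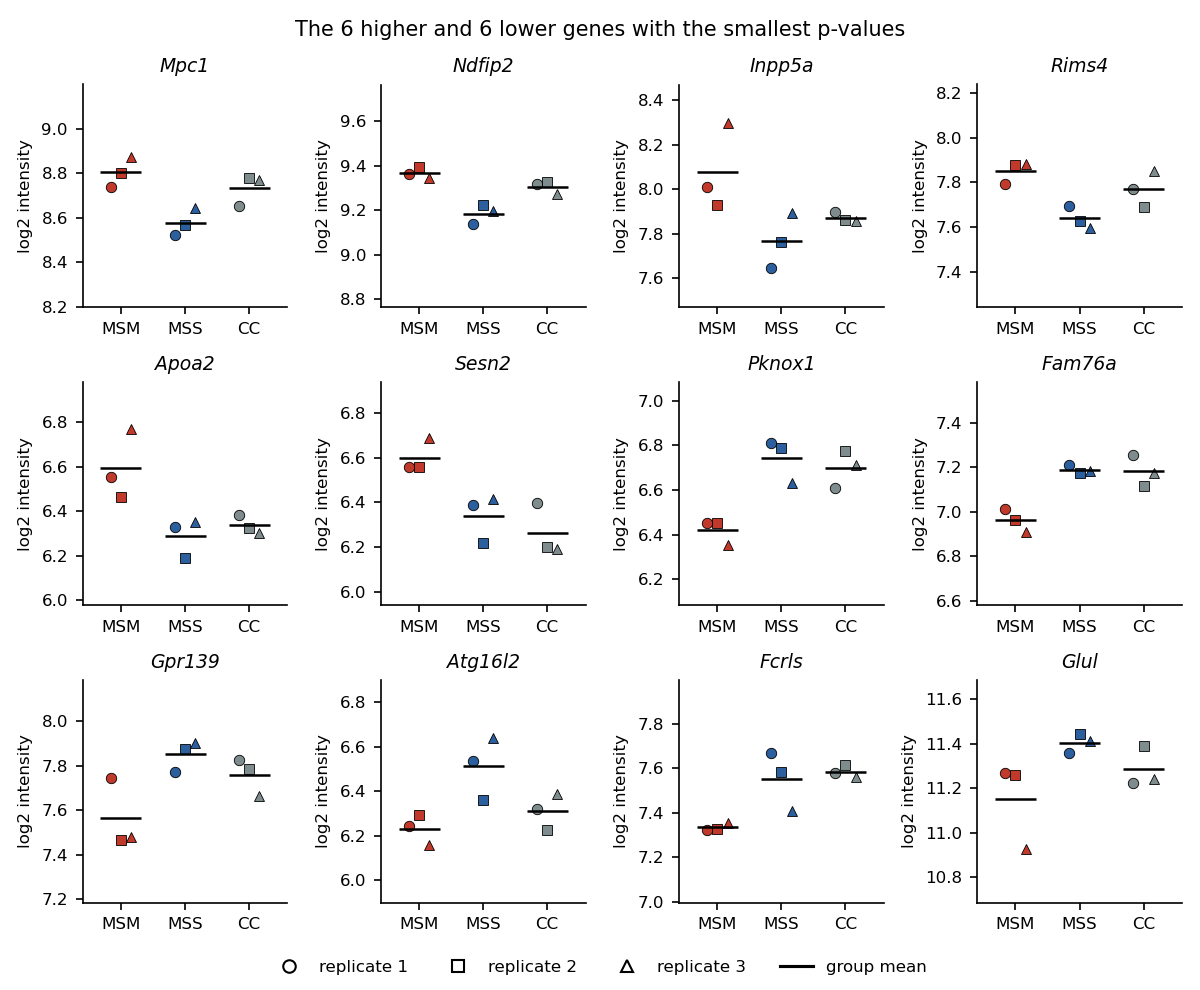
Log2 intensity (y axes) on each MSM, MSS and CC array (points, shape by replicate, line at the group mean) of the 6 higher and 6 lower genes with the smallest p-values among those at or above the median level with no overlap between MSM and MSS. For Pknox1 the MSM arrays lie at 6.36 to 6.45 and the MSS arrays at 6.63 to 6.81.

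On the lower side by size stood Ptgds (-1.02), a prostaglandin synthase of the meninges, Tshz2 (-0.81), Neurod6 (-0.76), Nr4a2 and Avpr1a (-0.70). Ptgds was 8.95, 8.16 and 9.32 in MSM, against 10.40, 9.49 and 9.58 in MSS. Its groups did not overlap, and the mean of 16 meninges and fibroblast markers was 7.36, 7.15 and 7.51 on the MSM arrays and 7.79, 7.28 and 7.46 on the MSS arrays. Slc47a1, a transporter of the meninges, was 5.25, 5.2 and 5.32 in MSM, against 5.84, 5.36 and 5.45 in MSS. Tshz2, a zinc finger protein, was 7.88, 6.78 and 7.19 in MSM, against 8.52, 8.61 and 7.14 in MSS. The part of meningeal tissue in these values was not tested.

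Whether morphine acted differently under mild and under severe stress was tested as the difference of both morphine differences, (MSM minus MSS) minus (SSM minus SSS). The SS number of the titles is constant within mild stress but not within severe stress, where SSM and SSS samples share 1 of 3 numbers, and its part in the interaction was not tested. The interaction gave 0 genes (0%) at an adjusted p under 0.05 in limma, with a smallest adjusted p of 0.959, and 727 (3.65%) at an unadjusted p under 0.05, 77 in the positive and 650 in the negative direction. SSM against SSS gave 0 genes (0%) as well, with 1736 (8.71%) higher at an unadjusted p under 0.05. The median interaction was -0.06, and SSM replicate 3, whose array median of 6.39 lay above the 6.22 to 6.27 of the other 14 arrays, is part of it. Fcrls was 7.32, 7.33 and 7.36 in MSM, against 7.67, 7.59 and 7.41 in MSS, and 7.73, 7.67 and 7.74 in SSM, against 7.46, 7.33 and 7.54 in SSS. Its difference was thus negative under mild and positive under severe stress, and the interaction was -0.49 ± 0.10 (SE). Cd48, an immune adhesion protein, was 3.99, 3.97 and 3.96 in MSM, against 4.23, 4.12 and 4.17 in MSS, and 4.22, 4.28 and 4.42 in SSM, against 3.95, 4.00 and 4.09 in SSS. Pknox1 had an interaction of -0.43 ± 0.10 (SE), and its SSM minus SSS difference was 0.11. In the positive direction stood Lifr (0.35), a cytokine receptor, Myo19 (0.39), a mitochondrial myosin, and Itpripl1 (0.43). The adjusted p of each of these 6 genes was 0.959 in limma. Of the clock genes, Dbp differed by 0.49 under severe stress, and the interaction of -0.21 had an unadjusted limma p of 0.123.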

How the data were processed

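RNA of 15 right hippocampi was measured on Affymetrix Mouse Gene 1.0 ST arrays. The authors deposited log2 RMA values in a table with a column per array, per the submitters' processing notes; no software or version is given in the sources used here. No further transformation was applied. Of its 35557 probe sets, 21789 carry 1 gene symbol in the platform annotation, 1621 several and 12147 none; the brightest probe set per symbol over all arrays was kept, giving 19938 genes, of which 19856 were found in RefSeq (GRCm38.p6). No filter on dim genes was applied.

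Groups followed the treatment label. The model of limma 3.58.1 (R 4.3.3, lmFit and eBayes) had a term for each of the 5 groups over 15 arrays, with 10 residual and 4.61 prior degrees of freedom. Two-sided p-values were adjusted by Benjamini-Hochberg across all genes, with a threshold of 0.05. The fit was tested on simulated data. The comparison and the 33 gene lists (690 members, 629 measured, 4 to 32 per list) were chosen with earlier results of these data known, so lists are described by counts and medians with no test. Named were the 12 genes in each direction with the smallest p among those whose groups did not overlap and whose level was at or above the median, the 5 largest differences in each direction, the 4 members of each list with the smallest p (in the text, those that show its range), 3 interaction genes in each direction and a set of opioid, stress and marker genes. Predicted genes, RIKEN clones, olfactory and related receptors and small RNAs were counted but not named. Further genes named for their level or role were chosen after their values were seen. Alternatives were other scalings, variance models, filters and probe set rules, marker covariates and each array left out.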

Additional observations from a re-analysis of the deposited data

How the results depend on the processing

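With 14 alternative settings, the number of genes past the threshold was 0 between MSM and MSS except without MSM replicate 1, where 1 gene (Rorb) passed, so leaving out arrays gave 0 to 1. The interaction gave 0 under every alternative run for it. Genes higher at an unadjusted p under 0.05 numbered 137 with the choroid plexus and thalamus covariates and 182 to 594 when an array was left out, against 316; genes lower numbered 422 after quantile normalization, 562 after median centring, 86 of 9969 genes with dim genes left out and 117 to 524 when an array was left out, against 197. Without MSM replicate 1 there were 539 higher and 524 lower, without MSM replicate 2 594 and 385, without MSM replicate 3 220 and 117, and without MSS replicate 2 182 and 174. Of 2381 values for 173 named genes, 43 in 21 genes changed sign, and the cause was not tested. With the covariates these were Slc12a2 -0.0238, Il33 -0.116, Slco1a4 -0.0693, Mia -0.0842, Dynlrb2 -0.00582, Cfap126 -0.102, Oprk1 -0.0304, Egr1 0.0216, Bdnf 0.00698, Tcf7l2 -0.0561 and Gfap -0.188. Leaving out an array gave, from lowest to highest, Oprl1 -0.0166 to 0.312, Pnoc -0.00431 to 0.304, Olig1 -0.0639 to 0.298 and Il33 -0.14 to 0.561, each lowest without MSM replicate 3, and Rgs14 -0.477 to 0.0743, Sort1 -0.233 to 0.00141, Dlg4 -0.194 to 0.00326, Egr1 -0.357 to 0.0775, Bdnf -0.191 to 0.0369 and Pdyn -0.161 to 0.0811, each highest without it. The others were Cfap126 -0.00779 to 0.2, Bpgm -0.126 to 0.0589 and Gfap -0.0892 to 0.193, which changed sign without MSS replicate 1, Oprd1 -0.0246 to 0.0898, lowest without MSM replicate 2, and Nr3c1 -0.0421 to 0.0256, highest without MSM replicate 1. No paired analysis was possible because the labels give no replicate numbers and the numbers used here follow the order of the samples. Signal near background limits dim genes such as Oprm1 and Pomc, and 3303 genes had a value shared by at least a pair of the 6 arrays.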
